A study of Mus musculus with 6 samples.

Results

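Osteopontin (*Spp1*), the matrix and matricellular genes *Fn1*, *Thbs1*, *Sparc* and *Ecm1*, the cell surface proteoglycan gene *Cspg4*, the osteopontin receptor gene *Cd44*, galectin 3 (*Lgals3*) and the plasminogen activator pair *Plau* and *Plaur* were followed in mouse bone marrow-derived macrophages. These 10 genes were chosen by symbol, and each matched 1 row among the 24972 rows of the deposited table. The macrophages came from Lcn10-KO mice, which lack the lipocalin gene *Lcn10* (3 libraries), and from WT mice (3 libraries). Cells of both genotypes were grown from marrow in medium holding 20% L929 supernatant, which supplies macrophage colony-stimulating factor, and 10% serum, and were left untreated. The sources used here give no strain, sex, age or kind of *Lcn10* allele. They also do not say whether each library had its own mouse, and the p-values describe only library-to-library spread, possibly technical.

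Matricellular proteins are secreted into the matrix but act mainly as signals to cells rather than as scaffolding. Osteopontin is among the main secreted products of macrophages, and it binds CD44 and integrins that contain the alpha v chain. Urokinase, the product of *Plau*, sits on its receptor at the cell surface and turns plasminogen into plasmin, a protease that clears fibrin and matrix and lets macrophages migrate. Galectin 3 is an abundant lectin that crosslinks sugars on surface glycoproteins.

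The libraries held about 18.0 to 24.8 M reads, estimated from the value of a single read. *Lcn10* was listed at 0 in all 6 libraries, so it could not check the genotype labels. Macrophage markers were high in every library, with *Lyz2* averaging 187157 normalized counts in Lcn10-KO and 174440 in WT, and *Csf1r*, the receptor for macrophage colony-stimulating factor, 31537 and 36974 in the same order. Replicates of a genotype differed by more than counting noise, with mean squared differences of 2.94 to 3.60 times the counting variance in Lcn10-KO and 3.99 to 9.33 times in WT, the larger WT values being those of pairs with WT replicate 1.

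RNA of osteopontin, urokinase, CD44 and the proteoglycan CSPG4 was lower in Lcn10-KO macrophage libraries, and that of galectin 3 was higher. Of the 10 genes, all of which passed the filter on low values, 4 fell, 1 rose and 5 did not pass the test. The threshold was an adjusted p under 0.05 by limma over all 12091 genes tested, where 9.84% were called, 5.14% lower and 4.70% higher. The median log2 fold change (Lcn10-KO minus WT) of the 10 genes was −0.23, against −0.0011 over all genes tested. The 3 libraries of one genotype all lay on one side of the other in the 5 called genes and in none of the other 5, whereas 32.4% of all genes tested were separated in this way. All 5 calls were lost in limma without a mean-variance trend, where robust estimation was also off, and these changes were not separated. Without Lcn10-KO replicate 1, 2 or 3 the number called was 3, 1 or 2. Calls over all genes tested fell as well, from 1190 in the main fit to 25 without a trend and robust estimation. They fell to 567, 206 and 173 without Lcn10-KO replicates 1, 2 and 3.

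**Figure D1:**
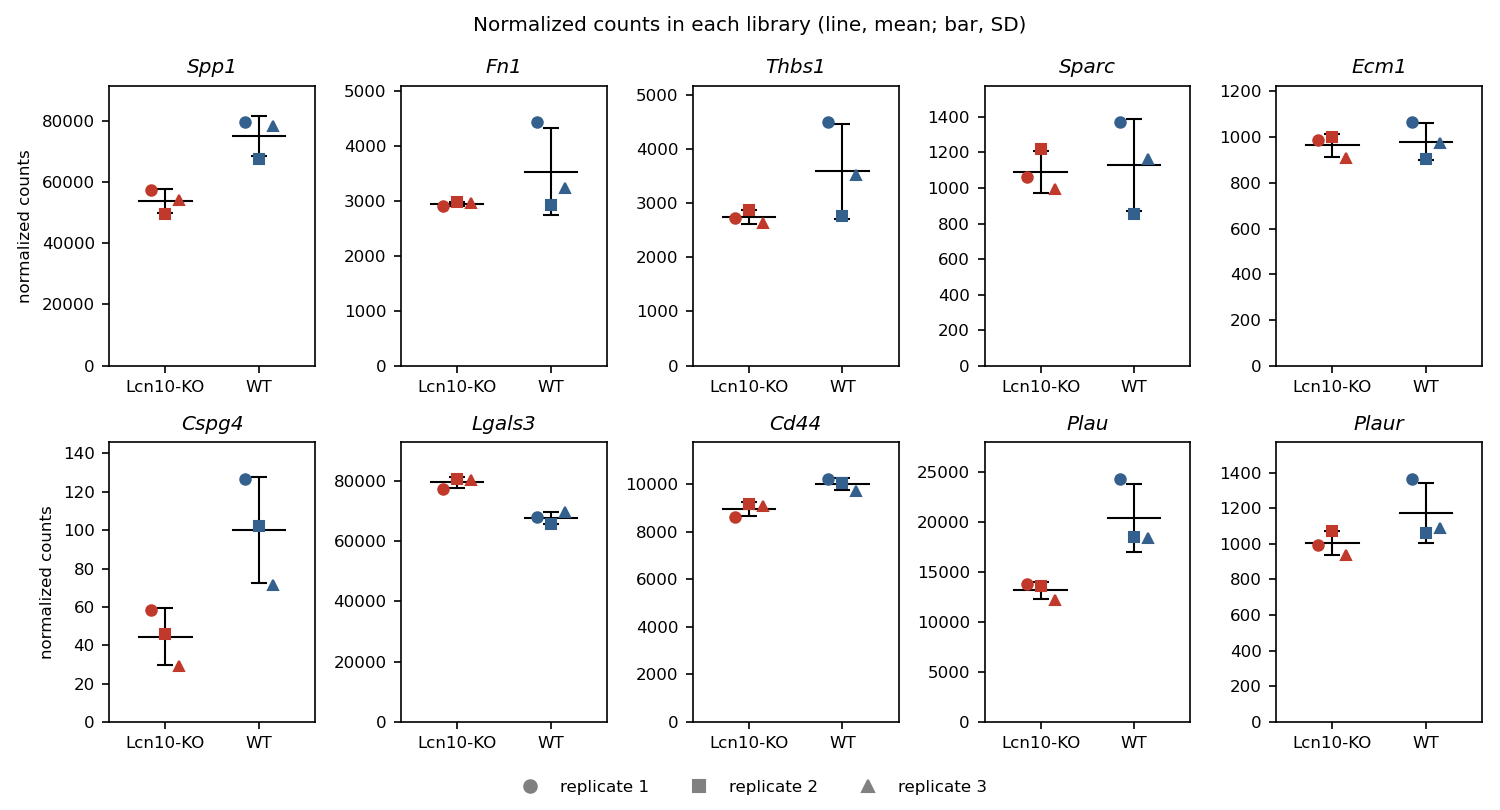
Normalized counts (vertical axis, from 0) of each gene in each library, Lcn10-KO in red and WT in blue, with the symbol marking the replicate number, the line the mean and the bar the SD of 3 libraries. *Spp1*, *Cspg4*, *Cd44*, *Plau* and *Lgals3* have separated genotypes, and in *Fn1*, *Thbs1* and *Plaur* WT replicate 1 stands above the other libraries.

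**Figure D2:**
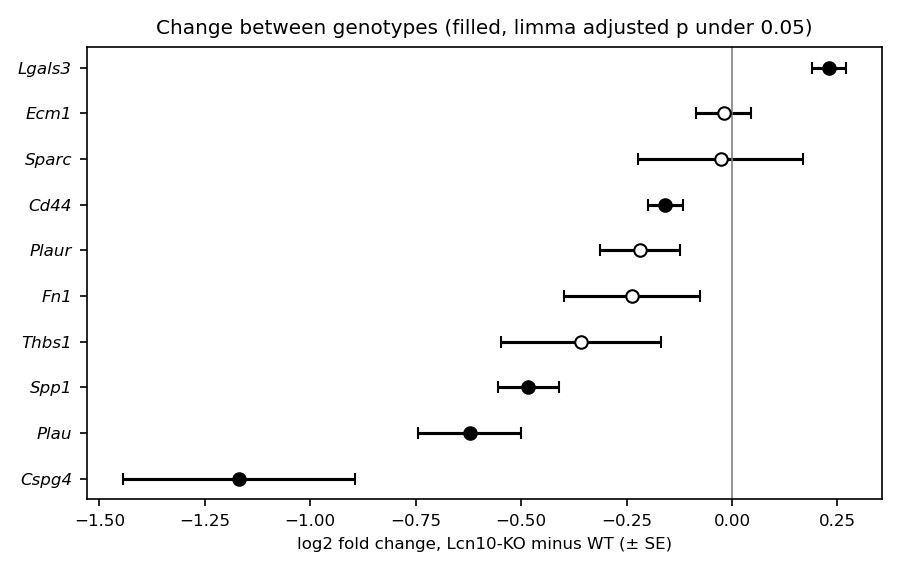
Log2 fold change (horizontal axis, Lcn10-KO minus WT, with its SE) of the 10 genes, ordered from highest to lowest, with filled points for a limma adjusted p under 0.05. *Lgals3* at 0.23 is the only point above 0, and *Cspg4* at −1.17 is the lowest.

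*Spp1*, one of the most abundant transcripts of these cells, had 57406, 49555 and 54004 normalized counts in Lcn10-KO, against 79411, 67524 and 78186 in WT. Every Lcn10-KO library was below every WT library. The mean fell by 28.5%, to 53655 ± 3938 in Lcn10-KO against 75040 ± 6538 in WT (SD, n = 3 each). The log2 fold change was −0.48 ± 0.07 (SE, limma adjusted p = 0.0061). Among the 10 genes it alone kept its call whichever single library was left out, with adjusted p of up to 0.0492. The gene lies on chromosome 5, 104435118 to 104441050, plus strand (GRCm38), and shares exon sequence with the annotated transcript *Gm42793*, which has no row in the table. Of the 2 RefSeq windows for *Spp1*, the more upstream was used, and the motifs given are those of this window only. Its 250 bases before the start (chr5:104434861-104435110, GRCm38.p6, plus strand) are printed because *Spp1* carries the most RNA of the called genes that fell.
Spp1: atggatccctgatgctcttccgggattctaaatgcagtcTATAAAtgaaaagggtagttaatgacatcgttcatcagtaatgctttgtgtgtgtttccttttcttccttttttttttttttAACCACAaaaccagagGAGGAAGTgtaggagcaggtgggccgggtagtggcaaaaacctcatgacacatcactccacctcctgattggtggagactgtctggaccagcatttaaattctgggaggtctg
Capitals mark matches, on either strand, to letters associated with AP-1 (TGANTCA), RUNX (AACCACA), PU.1 (GAGGAAGT), the GC box (GGGCGG) and the TATA box (TATAAA). The *Spp1* window held AACCACA at 129 to 123 bases before the start, GAGGAAGT at 113 to 106 and TATAAA at 211 to 206. These strings occur in 4.40%, 2.44% and 12.4% of all 32851 RefSeq windows of this length. A match says only that the letters are there.

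*Cd44*, which codes for the hyaluronan and osteopontin receptor CD44, had 8639, 9184 and 9091 normalized counts in Lcn10-KO, against 10236, 10058 and 9734 in WT. The genotypes did not overlap, but the difference was small. The log2 fold change was −0.16 ± 0.04 (SE, adjusted p = 0.0335), a fall of the mean by 10.4%. The call was lost without any one of the Lcn10-KO libraries (adjusted p of 0.146, 0.0987 and 0.0937 without replicates 1, 2 and 3). *Cd44* lies on chromosome 2, 102811141 to 102901665, minus strand, 77.1 Mb from *Lcn10* on the same chromosome. Its promoter window (chr2:102901666-102901915, minus strand, read 5′ to 3′) is shown beside that of *Spp1* because the genes of receptor and ligand both fell.
Cd44: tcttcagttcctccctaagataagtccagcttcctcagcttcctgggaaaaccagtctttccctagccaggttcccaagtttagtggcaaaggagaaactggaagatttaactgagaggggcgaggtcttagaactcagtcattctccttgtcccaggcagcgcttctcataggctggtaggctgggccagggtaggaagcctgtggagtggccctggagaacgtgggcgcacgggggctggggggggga
None of the 5 motifs occurs in these letters.

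Other receptors for osteopontin and fibronectin were taken from a list of 11 integrin chains, of which 9 were tested. Of these 9, 3 fell, none rose and 6 did not pass (median log2 fold change −0.09, against −0.0011 for all genes tested). *Itgav*, the alpha v chain through which osteopontin binds cells, had 5344, 4521 and 4866 normalized counts in Lcn10-KO and 7766, 7432 and 6936 in WT. It was lower in all 3 Lcn10-KO libraries than in every WT library, and the log2 difference of −0.59 ± 0.06 passed (SE, limma adjusted p = 0.000766). *Itga5*, the alpha chain of the classical fibronectin receptor, fell by 0.34 ± 0.08, and *Itga8*, another alpha chain that binds osteopontin, fell by 0.46 ± 0.11 on the log2 scale (adjusted p = 0.0344 and 0.0216). Both of these calls were lost without any single Lcn10-KO library, and that of *Itga5* also under quantile normalization (adjusted p = 0.0545). The beta chains that pair with alpha v gave no call, with log2 fold changes of 0.01 ± 0.04 for *Itgb1*, 0.23 ± 0.10 for *Itgb3* and −0.01 ± 0.04 for *Itgb5*. *Itgb7*, a beta chain of lymphoid and myeloid cells, was at −0.26 ± 0.09 (adjusted p = 0.0995). *Itgav*, *Lrp1* and *Itgb3* also stand in other lists below.

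*Lgals3* was the gene of the 10 that rose. It had 77293, 80634 and 80238 normalized counts in Lcn10-KO, against 67860, 65581 and 69634 in WT. All 3 Lcn10-KO libraries were above all 3 WT libraries, and the spread within each genotype was narrow (SD of 2.3% of the mean in Lcn10-KO and 3.0% in WT). The log2 fold change was 0.23 ± 0.04 (SE, adjusted p = 0.00573), and the adjusted p was 0.0517 without Lcn10-KO replicate 2. The gene lies on chromosome 14, 47367751 to 47386160, plus strand. Its window (chr14:47373610-47373859, plus strand) is printed as the one that belongs to a gene that rose, and its RefSeq start lies 6109 bases inside the GENCODE gene.
Lgals3: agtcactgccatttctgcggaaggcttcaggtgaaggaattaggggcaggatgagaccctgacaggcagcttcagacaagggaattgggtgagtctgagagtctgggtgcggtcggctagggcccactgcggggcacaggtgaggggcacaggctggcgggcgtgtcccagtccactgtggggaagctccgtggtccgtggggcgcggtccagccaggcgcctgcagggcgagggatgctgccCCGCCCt
It holds 1 GC box, on the opposite strand at 7 to 2 bases before the start, a string found in 32.7% of all windows. Of 5 tested galectin genes besides *Lgals3* and including the binding protein gene *Lgals3bp*, 1 rose and none fell (median −0.07). That gene was *Lgals8*, a galectin that marks damaged endosomes, at 2564 ± 63.4 in Lcn10-KO and 2168 ± 163 in WT (SD, n = 3 each; log2 fold change 0.24 ± 0.05, adjusted p = 0.0183). *Lgals8* shares exon sequence on the opposite strand with *Heatr1*, whose own log2 fold change was −0.27, and its call was lost without any one Lcn10-KO library. *Lgals1*, *Lgals9* and *Lgals3bp* had log2 fold changes of 0.09 ± 0.04, −0.07 ± 0.10 and −0.09 ± 0.10.

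*Plau*, which codes for urokinase, had 13736, 13549 and 12169 normalized counts in Lcn10-KO, against 24284, 18461 and 18410 in WT. The groups did not overlap, and WT replicate 1 stood above the other WT libraries. The mean fell by 35.5%, and the log2 difference was −0.62 ± 0.12 (SE, limma adjusted p = 0.0348). Without WT replicate 1 it was −0.49 (adjusted p = 3.8e-06), and the call was lost without Lcn10-KO replicate 1, 2 or 3 (0.0784, 0.116 and 0.104) and with no filter on low values (0.0652). *Plaur*, the gene of the urokinase receptor, had 995, 1073 and 938 in Lcn10-KO and 1366, 1063 and 1087 in WT. The genotypes overlapped, and the log2 fold change of −0.22 ± 0.10 did not pass (adjusted p = 0.187). Per kilobase of exon, the level of *Plau* was 15.3, 13.97 and 14.3 times that of *Plaur* in the Lcn10-KO libraries and 19.7, 19.2 and 18.7 times in the WT libraries. This ratio did not overlap between the genotypes, a description for which no test was made. *Plau* lies on chromosome 14, 20836660 to 20843385, plus strand, and *Plaur* on chromosome 7, 24462484 to 24475968, plus strand.

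In the wider plasminogen list, which also holds serpins and coagulation genes, 18 of 23 genes were tested, of which 3 rose, 1 fell and 14 did not pass (median log2 fold change 0.08). Plasminogen itself (*Plg*) was listed at 0 in every library. *Plgrkt*, a plasminogen receptor of the cell membrane, had 633, 700.3 and 657 normalized counts in Lcn10-KO and 473, 579 and 546 in WT (log2 fold change 0.32 ± 0.08, adjusted p = 0.0248). *Serpinb6a*, an intracellular serpin, rose by 0.32 ± 0.06 and *F10*, coagulation factor X, by 0.91 ± 0.18 on the log2 scale (adjusted p = 0.00979 and 0.0122). *Serpinb6a* shares exon sequence on the opposite strand with *Nqo2* and *Ripk1*. *Lrp1*, an endocytic receptor that clears urokinase complexes, fell by 0.25 ± 0.06 (adjusted p = 0.0244). Without either Lcn10-KO replicate 2 or 3 none of these 4 calls held.

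*Cspg4*, which codes for the proteoglycan NG2, had the largest fold difference of the 10 genes and by far the lowest level. It had 58.6, 45.6 and 29.2 normalized counts in Lcn10-KO, against 127, 102 and 71.5 in WT. The genotypes did not overlap, although Lcn10-KO replicate 1 and WT replicate 3 lay close to each other. The log2 fold change was −1.17 ± 0.28 (SE, adjusted p = 0.0284), and it no longer passed when Lcn10-KO replicate 2, Lcn10-KO replicate 3 or WT replicate 2 was dropped (adjusted p of 0.106, 0.0859 and 0.0561). Pericytes and other stromal cells are known for this proteoglycan. The stromal gene *Pdgfrb*, picked after its values were seen, lay at 194, 183 and 201 in Lcn10-KO and at 326, 152 and 188 in WT. Both genes were highest in WT replicate 1. In WT replicate 2 *Pdgfrb* was at its lowest, whereas *Cspg4* was above every Lcn10-KO library. *Pdgfrb* did not separate the genotypes. Of the 14 tested fibroblast and stromal markers, 9 had positive and 5 negative log2 fold changes (median 0.09). The part of stromal RNA in the *Cspg4* difference was not tested. *Cspg4* lies on chromosome 9, 56865033 to 56899870, plus strand. Its window (chr9:56864854-56865103, plus strand) is shown as that of the gene with the largest fold difference.
Cspg4: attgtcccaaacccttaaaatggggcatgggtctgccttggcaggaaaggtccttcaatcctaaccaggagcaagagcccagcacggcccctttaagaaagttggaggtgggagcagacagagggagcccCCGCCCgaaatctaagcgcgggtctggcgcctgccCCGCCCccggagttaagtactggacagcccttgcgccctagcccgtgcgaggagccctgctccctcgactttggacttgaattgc
It holds 2 GC boxes on the opposite strand, at 120 to 115 and 85 to 80 bases before the start, and none of the other motifs.

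The genes of fibronectin, thrombospondin 1, osteonectin and extracellular matrix protein 1 gave no call. *Fn1*, the gene of the fibronectin that cells bind through alpha 5 integrin, had 2903, 2981 and 2950 normalized counts in Lcn10-KO, against 4421, 2927 and 3228 in WT. The Lcn10-KO libraries were nearly equal (SD of 1.3% of the mean) and the WT libraries spread widely (22.4%), with WT replicate 2 inside the Lcn10-KO range. The log2 fold change was −0.24 ± 0.16 (adjusted p = 0.431), and −0.06 without WT replicate 1. *Thbs1*, which codes for thrombospondin 1, an activator of latent transforming growth factor beta and a ligand of CD36 and CD47, had 2717, 2880 and 2636 in Lcn10-KO and 4487, 2753 and 3511 in WT. Here too WT replicate 2 lay within the Lcn10-KO range and WT replicate 1 far above it. The log2 fold change was −0.36 ± 0.19 (adjusted p = 0.323), −0.18 without WT replicate 1 and −0.53 without WT replicate 2, where it passed (adjusted p = 0.0234).

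*Sparc*, the gene of osteonectin, a collagen-binding protein that loosens cell adhesion, had 1059, 1221 and 992 normalized counts in Lcn10-KO, against 1368, 853 and 1163 in WT. The WT libraries spanned the whole Lcn10-KO range (log2 fold change −0.03 ± 0.20, adjusted p = 0.953). *Ecm1*, a secreted glycoprotein that binds matrix components, had 987, 1001 and 908 in Lcn10-KO and 1064, 903 and 973 in WT (−0.02 ± 0.07, adjusted p = 0.886). For both genes the sign changed when certain single libraries were left out. *Fn1* lies on chromosome 1, 71585520 to 71653200, minus strand, and *Sparc* on chromosome 11, 55394500 to 55423183, minus strand. *Ecm1* lies on chromosome 3, 95734147 to 95739569, minus strand. *Thbs1* lies on chromosome 2, 118111876 to 118127133, plus strand, 92.4 Mb from *Lcn10*.

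WT replicate 1 was the highest WT library in 9 of the 10 genes, all but *Lgals3*, against 38.6% of all genes tested. WT replicate 2 was the lowest WT library in 7 of the 10, against 32.9%. Of the 14 tested fibroblast and stromal markers, 10 had WT replicate 1 highest and WT replicate 2 lowest of the WT libraries. That is 71.4% of them, against 21.5% of all genes tested. Summed over the 17 fibroblast and stromal markers, the level was 6769 to 7651 normalized counts in Lcn10-KO, against 8968, 5320 and 7404 in WT replicates 1, 2 and 3. None of these 17 was listed at 0 in all libraries, and none of the 14 tested passed by limma (0 also at an unadjusted p under 0.05). The 2 highest, *Col1a2* and *Col1a1*, averaged 1736 and 1543 in Lcn10-KO and 1633 and 1430 in WT. The median log2 fold change of the 14 was 0.09, with 9 positive and 5 negative. *Tagln* and *Acta2*, genes of contractile stromal cells picked after their values were seen, had the lowest (−0.50 and −0.33). They lay 0.82 and 0.69 log2 units above their 6-library mean in WT replicate 1 and 0.36 and 0.37 below it in WT replicate 2. *Col1a1* and *Col3a1* lay 0.26 and 0.19 above theirs in WT replicate 1 and 0.42 and 0.77 below in WT replicate 2. *Col3a1* was highest in Lcn10-KO replicate 1, at 0.33 above. In the same libraries *Thbs1* lay 0.53 above and 0.17 below, and *Fn1* 0.47 above and 0.13 below. The part of stromal RNA in the values of *Fn1*, *Thbs1*, *Sparc* and *Plau* was not tested, and in such bulk libraries fewer cells of a type and less RNA per cell cannot be told apart.

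Markers of macrophages and other marrow cell types are given here by their summed levels. The 12 macrophage markers summed to 345586 to 356264 normalized counts in Lcn10-KO and 322608 to 332102 in WT (3 rose, 2 fell). The 10 osteoclast markers, of cells that also make much osteopontin, summed to 7782 to 8613 in Lcn10-KO and 4615 to 6189 in WT. Most of this sum was *Atp6v0d2*, a proton pump subunit, and the summed levels of the other markers overlapped between the genotypes. Of the 8 tested, *Atp6v0d2* rose (6182 ± 493 in Lcn10-KO and 3549 ± 620 in WT, limma adjusted p = 0.034). The remaining 7 did not pass, and the median log2 fold change of the 8 was 0.19, with 5 positive and 3 negative. *Mmp9* at 0.92 ± 0.26 and *Ctsk* at 0.39 ± 0.12 missed narrowly (limma adjusted p = 0.0528 each). In both, every Lcn10-KO library was above every WT library. *Nfatc1* was at −0.06 ± 0.05. The neutrophil markers summed to 854 to 969.5 in Lcn10-KO and 602 to 819 in WT, with *Ly6g* at 0 and *Csf3r* the 1 of 5 tested that rose (log2 fold change 0.50 ± 0.12, adjusted p = 0.0363). Megakaryocyte markers, nearly all *Pf4*, summed to 2909 to 3034 in Lcn10-KO and 2580 to 3531 in WT with no call, and the 8 dendritic cell markers to 13.02 to 27.4 and 18.2 to 23.96 in the same order, too low to test. The *Atp6v0d2* and *Csf3r* calls were both lost without WT replicate 3 or any one Lcn10-KO library, and that of *Atp6v0d2* also when low genes were kept in (adjusted p = 0.057). The part of these cells in the *Spp1* difference was not tested.

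**Figure D3:**
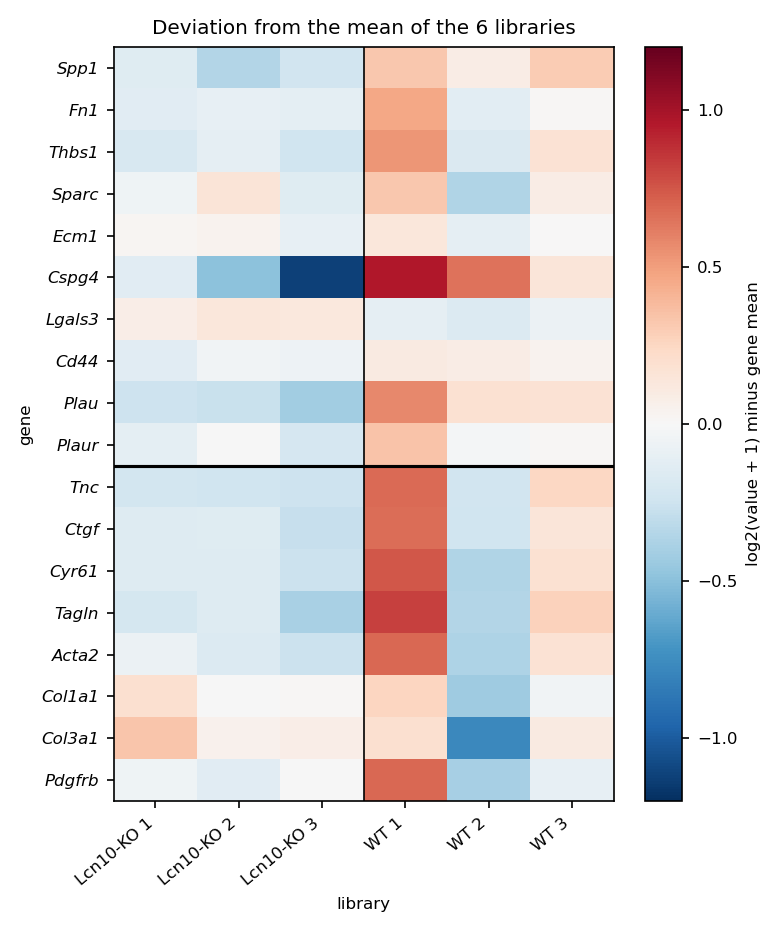
Deviation of log2(value + 1) from each gene's mean over the 6 libraries (colour, log2 units), with libraries as columns, Lcn10-KO left of WT, and genes as rows. Below the line are matricellular, contractile and stromal genes picked for comparison after their values were seen. WT replicate 1 is above the mean in every row but *Lgals3*, and WT replicate 2 is below it in all 8 rows under the line.

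Of 35 symbols listed as other matricellular genes, 29 had a row in the deposited table. Of these, 16 were tested, of which 1 fell, none rose and 15 did not pass (median −0.06). The gene that fell was *Tgfbi*, whose product binds collagen and integrins, at 4116, 4074 and 3691 normalized counts in Lcn10-KO and 5736, 5782 and 5713 in WT (log2 fold change −0.54 ± 0.05, adjusted p = 5.7e-05). Its WT libraries were almost equal, WT replicate 1 included. *Smoc1*, a calcium-binding matricellular gene related to *Sparc*, was at 26.5 ± 7.67 in Lcn10-KO and 54.9 ± 20.2 in WT (SD, n = 3 each) and did not pass (−1.0 ± 0.31, adjusted p = 0.0616), but passed under quantile normalization (0.0439). *Mfge8*, a bridge between dying cells and alpha v integrins, and *Wisp1*, a member of the CCN family, had log2 fold changes of 0.14 ± 0.06 and −0.35 ± 0.20.

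Among genes of matrix assembly and crosslinking, all 26 were tested, and 5 fell, none rose and 21 did not pass (median −0.17). *Sulf2*, a sulfatase that edits heparan sulfate, had 1980, 1831 and 1883 normalized counts in Lcn10-KO and 2587, 2447 and 2366 in WT (−0.38 ± 0.05, adjusted p = 0.00128), and shares exon sequence on the opposite strand with *Ncoa3*, at −0.08. *F13a1*, the transglutaminase subunit of factor XIII that crosslinks fibrin and fibronectin, fell by 0.61 ± 0.13 on the log2 scale (adjusted p = 0.0311). The collagen hydroxylase genes *P4ha1* and *Plod1* fell by 0.35 ± 0.07 and 0.22 ± 0.06 (0.0202 and 0.034), and *Plod3* was the fifth. WT replicate 1 was the highest WT library in 80.8% of this list and WT replicate 2 the lowest in 76.9%. The calls of *F13a1* and *Plod1* were lost without any one Lcn10-KO library, that of *F13a1* also without WT replicate 1, and that of *P4ha1* without Lcn10-KO replicate 1 or 3.

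Receptors of thrombospondin 1 were all tested, 10 genes of which 3 fell, none rose and 7 did not pass (median 0.12). Those that fell were *Itgav*, *Lrp1* and *Calr*, the gene of calreticulin, which binds thrombospondin at the cell surface but works chiefly as a chaperone (−0.22 ± 0.04, adjusted p = 0.00831). The *Calr* call was lost without Lcn10-KO replicate 2 or 3. *Sirpa*, a partner of CD47, was at 0.20 ± 0.06 (adjusted p = 0.0547), and *Cd36* and *Cd47* were at 0.11 ± 0.05 and 0.14 ± 0.05 and did not pass. Of 20 symbols listed as hyaluronan and CD44 genes, 19 had a row in the deposited table. Of these, 13 were tested, 1 rose, 1 fell and 11 did not pass (median −0.02). *Msn*, moesin, which ties CD44 to the actin cortex, fell by 0.19 ± 0.05 on the log2 scale (adjusted p = 0.0411), and *Stab2*, a hyaluronan scavenger receptor, rose by 1.30 ± 0.26 (0.0121). The *Msn* call was lost under quantile normalization (0.055), without WT replicate 3 and without any one Lcn10-KO library, and the *Stab2* call without Lcn10-KO replicate 2 or 3. *Ezr*, ezrin, and *Tmem2*, a hyaluronidase of the cell surface, had values of −0.17 ± 0.07 and −0.19 ± 0.07. The 10 endothelial markers, of a cell type that also carries *Stab2*, summed to 2473 to 3156 normalized counts in Lcn10-KO and 2231 to 2416 in WT, and 2 of 9 tested rose and none fell. The median log2 fold change of the 9 was 0.66, with 8 positive and 1 negative. *Stab2* had 42.6, 81.3 and 71.9 normalized counts in Lcn10-KO and 20.4, 30.8 and 24.7 in WT. *Pecam1*, *Cdh5* and *Emcn* were also highest in Lcn10-KO replicate 2 (161, 165 and 121), overlapped between genotypes and did not pass. *Kdr* was highest in WT replicate 1 (280). *Vwf* and *Eng*, the highest endothelial markers, averaged 1240 and 1009 in Lcn10-KO and 1082 and 855 in WT (limma adjusted p = 0.0424 and 0.0246). Neither passed when replicate 2 or 3 of Lcn10-KO or replicate 3 of WT was dropped. The call of *Eng* was also lost without Lcn10-KO replicate 1, and that of *Vwf* without WT replicate 2 and with no filter (0.0516). The part of endothelial RNA in the *Stab2* difference was not tested.

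**Figure D4:**
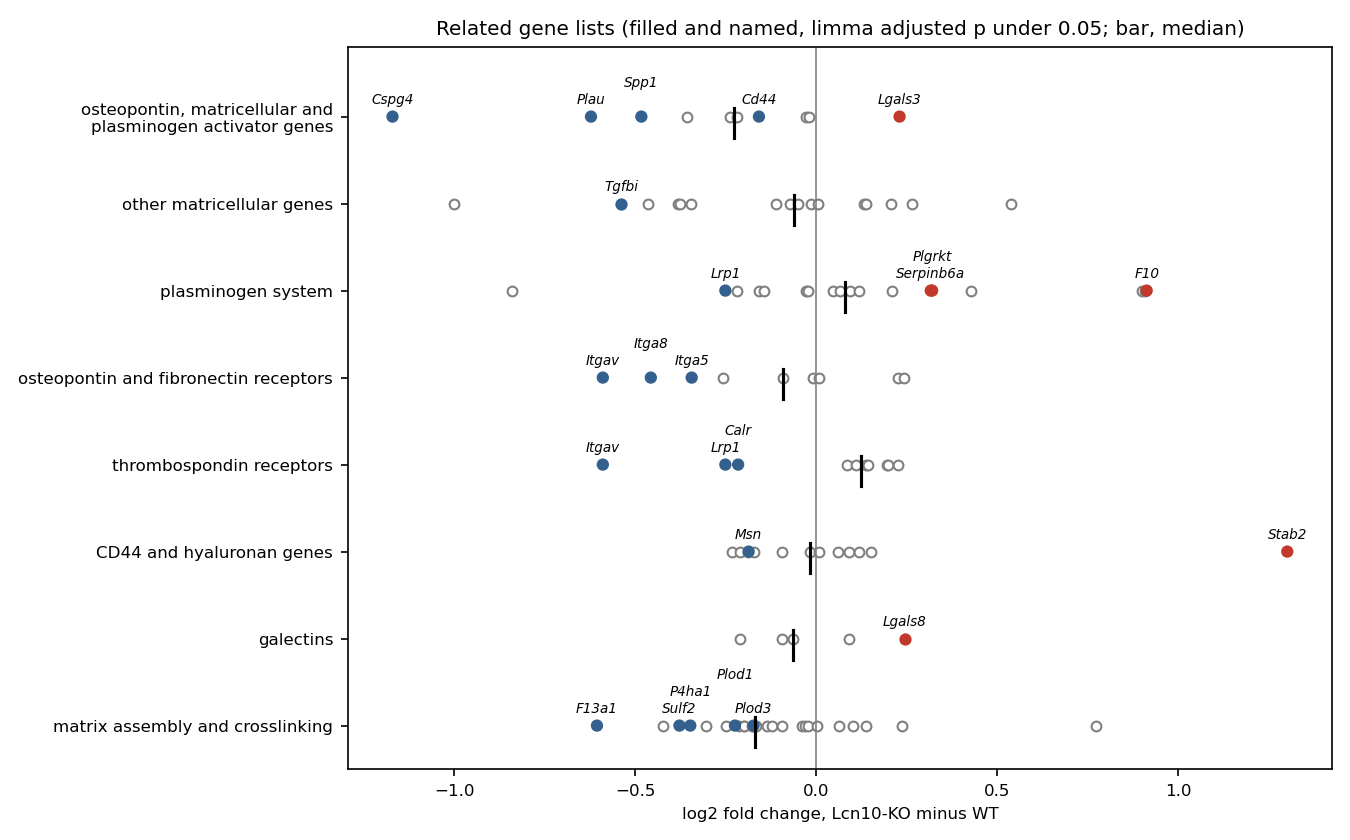
Log2 fold change (horizontal axis, Lcn10-KO minus WT) of every tested gene in each list (rows), with filled and named points for a limma adjusted p under 0.05, red for higher and blue for lower in Lcn10-KO, and a bar at the median. Named points lie on the lower side for integrin chains and matrix assembly and on both sides for the plasminogen list.

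Set per kilobase of exon, the 10 genes spanned a wide range of levels. *Spp1* and *Lgals3* led in both genotypes and changed places between them. *Spp1* stood at 34834, 30069 and 32769 normalized counts per kilobase in Lcn10-KO, below *Lgals3* at 41600, 43398 and 43185 in the same libraries. In WT the order was reversed in each library, with *Spp1* at 48187, 40973 and 47443 and *Lgals3* at 36523, 35296 and 37478. The ratio of *Spp1* to *Lgals3* per kilobase averaged 0.763 ± 0.072 in Lcn10-KO and 1.249 ± 0.081 in WT (SD, n = 3 each). *Plau* came next at a mean of 5556 in Lcn10-KO and 8612 in WT, then *Cd44* at 1324 and 1477 and *Thbs1* at 452 and 590 in the same order of genotypes. *Plaur*, *Ecm1*, *Sparc* and *Fn1* lay between 252 and 383 per kilobase in Lcn10-KO and between 298 and 448 in WT. Neighbours in this order overlapped in WT, while in Lcn10-KO *Plaur* and *Ecm1* overlapped and *Sparc* and *Fn1* lay below them without overlap. *Cspg4* was at 3.73 in Lcn10-KO and 8.39 in WT.

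The tested genes whose log2 values ran most like those of *Spp1* over the 6 libraries were *D1Ertd622e*, *Cnih4* and *Hsd17b12*, each with a Pearson correlation of 0.995. For *Lgals3*, the gene of the 10 with the smallest p, they were *Nat9* (0.997), *Mkl1* (0.994) and *Cd59a* (0.992). With 6 libraries high values are common, and 199 genes exceeded 0.95 for *Spp1* and 98 for *Lgals3*. *Nat9* rose by 0.29 ± 0.09 on the log2 scale and *Cd59a* by 1.11 ± 0.09 in Lcn10-KO (limma adjusted p = 0.0489 and 2.29e-05), and the *Nat9* call was lost whichever library was left out. *Mkl1* did not pass (0.15 ± 0.05, adjusted p = 0.0598), nor did *D1Ertd622e*, *Cnih4* and *Hsd17b12* (−0.09 ± 0.04, −0.12 ± 0.05 and −0.07 ± 0.04, adjusted p = 0.176, 0.123 and 0.277).

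**Figure D5:**
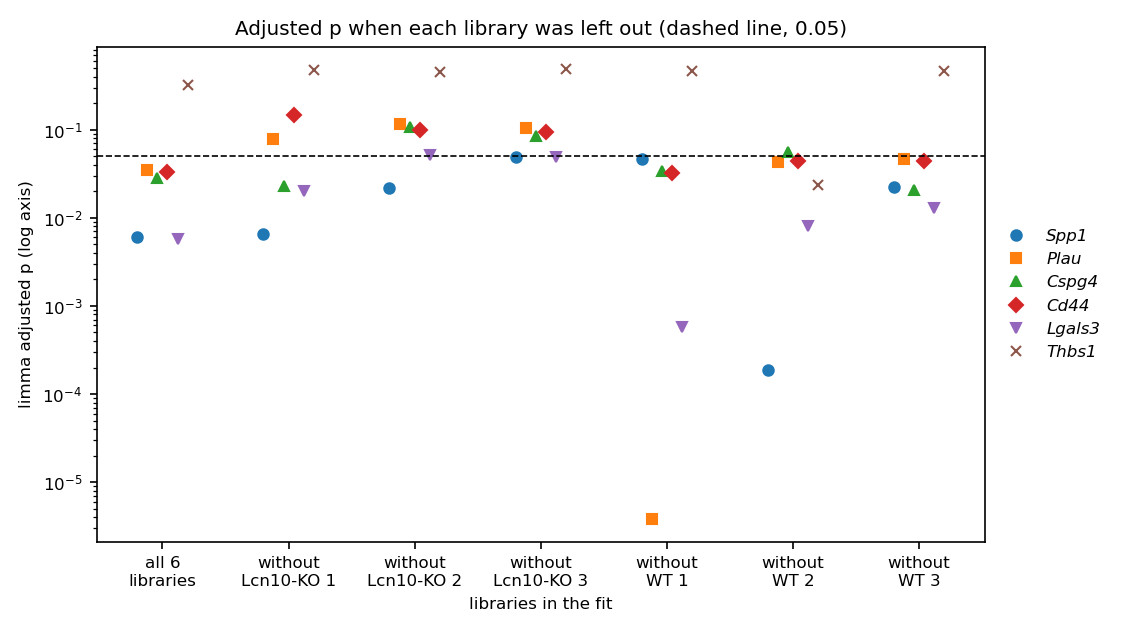
Limma adjusted p (vertical log axis) of the 5 called genes and of *Thbs1* in the fit of all 6 libraries and with each library left out (horizontal axis), with a dashed line at 0.05. *Spp1* stays under the line throughout, and *Plau* and *Cd44* lie above it whenever an Lcn10-KO library is left out.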

How the data were processed

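RNA of 6 libraries was sequenced, 3 of Lcn10-KO and 3 of WT macrophages, and groups and columns were matched by the titles and library names in the labels. Per the submitters' processing notes, bcl2fastq, STAR 2.6.1a, Salmon 0.11.2 and DESeq2 were used with build mm10, with roles not given. The deposited table holds normalized counts, a signal scaled by the authors so that library totals are nearly equal. Of the low values, 91.0% to 92.8% were whole multiples of a single read within 0.1 reads, and the value of a read varied between genes. Reads were therefore not recovered, and no count test was run.

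The 12091 genes that reached 10 in 3 or more libraries were fitted as log2(value + 1) by limma 3.58.1 (R 4.3.3), using a trend and robust estimation and no covariate beside genotype. Fold changes are on that scale, which understates low genes. P-values were adjusted by Benjamini-Hochberg over all genes tested. The fit was also tested on simulated data for this comparison, drawn with a common spread beyond counting noise for all genes and libraries. The strand setting of the counting is not stated, so genes that share exons cannot be told apart. The genes, lists and motifs were chosen with earlier results of these data known. Related lists (7) give the 4 genes with the smallest p, and marker lists (7) the 2 highest; for *Spp1* and *Lgals3* the 3 genes of highest Pearson correlation are named. Other genes, such as *Tagln*, were picked after their values were seen. Exon lengths and positions came from GENCODE (GRCm38), and promoter sequences from a table drawn from RefSeq (GRCm38.p6), in which 7 of the 10 genes matched; those of *Fn1*, *Thbs1* and *Plau* were not used here. Alternatives were other scalings, filters and pseudocounts, no trend (with robust estimation also off), a replicate block and each library left out. Figures were drawn with matplotlib 3.10.9.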

Additional observations from a re-analysis of the deposited data

How the results depend on the processing

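The 5 calls among the 10 genes were kept under quantile normalization, median ratio rescaling (1 common factor for all libraries), a stricter filter and pseudocounts of 0.5 and 10. Without a trend and robust estimation limma called 25 genes in all and 0 of the 10 (5 at an unadjusted p under 0.05). Leaving out 1 library gave 173 to 1652 genes in all and 1 to 5 of the 10, with 567, 206 and 173 without Lcn10-KO replicates 1, 2 and 3. Fits of the same size without WT replicates 1, 2 and 3 called 1145, 1652 and 887 genes. The cause of these differences was not tested. Signs changed when 1 library was left out only for named genes that had not passed, with log2 fold changes of −0.22 to 0.13 for *Sparc*, −0.077 to 0.041 for *Ecm1*, −0.18 to 0.016 for *Lgals3bp*, −0.15 to 0.020 for *Lgals9*, −0.037 to 0.20 for *Col1a2*, −0.045 to 0.30 for *Col1a1* and −0.15 to 0.068 for *Pf4*. With a replicate block 1607 genes and 5 of the 10 were called, *Smoc1* and *Sirpa* passed (adjusted p = 0.026 each) and *Nat9* did not (0.0513). Deviations of same-numbered libraries correlated only at 0.038, 0.073 and 0.014, and the numbers were not taken to pair the samples. Every library correlated best with its own number except WT replicate 3, which correlated best with Lcn10-KO replicate 1 (0.026). DESeq2 was not run, because the values are not counts. Counting error weighs most on *Cspg4*, the lowest of the 10.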
